A study of Mus musculus with 9 samples.

Results

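Ttr and Otx2, which define the choroid plexus epithelium, were low in these striatal libraries, with medians of 1.71 and 3.48 normalized counts. Enpp2 and Clic6 were well expressed, and the 8 genes described here did not rise and fall together. The description covers 8 genes of the choroid plexus epithelium, Ttr, Kl, Folr1, Clic6, Aqp1, Otx2, Enpp2 and Kcnj13, taken by their Ensembl identifiers from a table of 15464 genes. All 8 were listed, and 6 of them were high enough to test, with 10 or more normalized counts in 3 or more of the libraries. The single libraries were compared first and the genotypes afterwards.

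RNA came from the striatum of 9 male mice, with 1 library per mouse. The mice were wild-type (WT), heterozygous (HET) or homozygous (KO) for Shank3B, a germline mutation that deletes an internal block of exons of Shank3, which encodes a postsynaptic scaffold protein of excitatory synapses. Each genotype had 3 mice, all on a C57BL/6J background and 10 to 12 weeks old, with no other allele or treatment given. Because every cell of these mice carries the genotype, a difference between genotypes is not tied to one cell type of the striatum.

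The choroid plexus is a vascularised tissue covered by a single layer of epithelium that hangs in the brain ventricles and secretes cerebrospinal fluid. The lateral ventricle runs along the inner face of the striatum, so choroid plexus can come along when the striatum is cut out. Its epithelium makes very large amounts of transthyretin, and it moves ions, water, folate and hormones between blood and fluid. Otx2 is the homeodomain transcription factor needed to form and keep this epithelium.

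The values were normalized counts, that is, estimated reads per gene divided by a size factor of the library, and they summed to between 30830020 and 33790296 per library. Whole reads could not be recovered from them, so the sequencing depth behind each value was unknown and no counting interval was given. In bulk tissue, fewer cells of a type and less RNA per cell cannot be told apart. The tissue label was checked with 12 genes of striatal medium spiny neurons, which summed to between 75498 (KO3) and 163990 (WT2). KO3 and WT3 had the lowest striatal sums and also the highest sums of 9 cortical genes, 58322 and 53900. HET3 and KO3 stood apart from the other libraries on the first principal component, which held 33.6% of the variance, and results are given without them where that matters. Shank3 itself was at 7355 ± 1390 (SD, n = 3) in WT, 7574 ± 476 in HET and 10538 ± 283 in KO. Each of the 3 KO values lay above all WT and HET values (log2FC against WT 0.54, SE 0.13, limma adjusted p = 0.999). That sum takes in exons outside the deleted block, so it does not check the deletion.

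The genes were first ordered by level per kilobase of exon. Enpp2 stood alone at a mean of 1277 normalized counts per kb over the 9 libraries, with a range of 998 to 1460. Clic6 followed at 39.3 per kb, with a range of 15.4 to 52.9. Then came Aqp1 at 8.84, Kcnj13 at 6.86, Kl at 5.28, Folr1 at 4.54, Ttr at 3.88 and Otx2 at 1.53 per kb. Enpp2 and Clic6 had ranges that did not overlap, while each neighbouring pair from Clic6 down to Otx2 overlapped, so that part of the order was not separated beyond the spread of the libraries. On the same scale, the gene at the middle of 19 ependymal genes was at 27.7 per kb, that of 11 meningeal genes at 31.5, that of 12 oligodendrocyte genes at 2520 and that of the 12 striatal genes at 1374. The 6 members from Aqp1 down were therefore below the middle of the ependymal and meningeal lists, and Enpp2 was the only member at the scale of the abundant striatal and myelin genes.

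**Figure D1:**
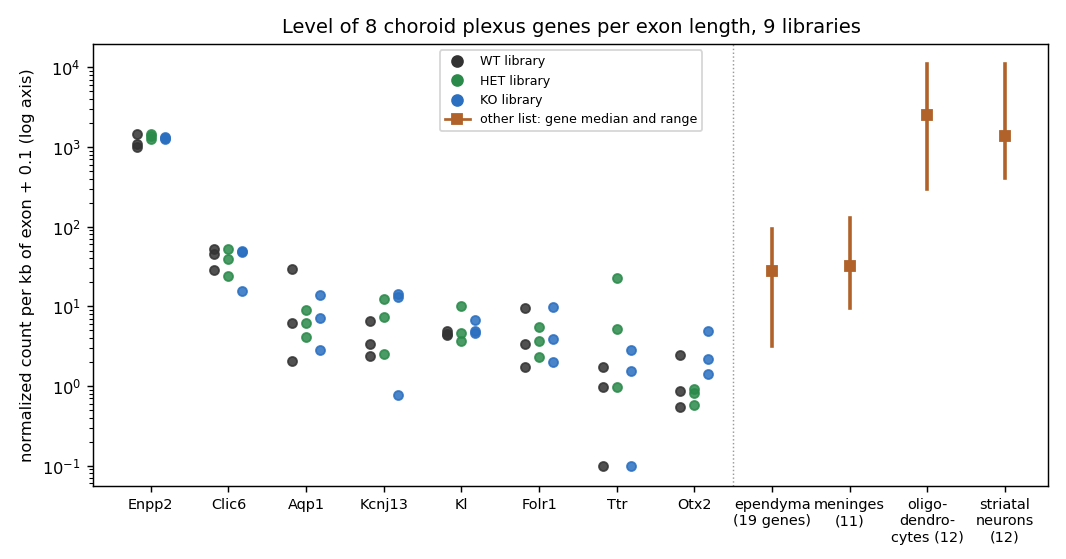
Normalized count per kilobase of exon, plus 0.1 and on a log axis, for the 8 choroid plexus genes in each of the 9 libraries (points coloured by genotype) and, to the right of the dotted line, the gene median (square) and gene range (bar) of 4 other marker lists. Enpp2 sat near 1277 per kb, Clic6 near 39.3, and the other 6 members at means of 8.84 or less. The Ttr points at the bottom are the libraries listed at 0.

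Among secreted proteins, Ttr encodes transthyretin, the carrier of thyroxine and retinol-binding protein in cerebrospinal fluid. Ttr was listed at 0 in WT1, 1.03 in WT2 and 1.91 in WT3, at 1.03, 26.6 and 5.95 in HET1 to HET3, and at 1.71, 3.24 and 0 in KO1 to KO3. HET2 held the highest value by a wide margin and HET3 the next, and the other 7 libraries were all at or below 3.24. The highest value amounted to 0.842 counts per 1000000 of the library's sum.

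Enpp2 (15:54838901-54952892, minus strand; coordinates here and below are of GRCm38 and all members are protein coding) encodes autotaxin, a secreted enzyme that makes the lipid signal lysophosphatidic acid. Oligodendrocytes are known to make it too. Its normalized counts were 5767, 6361 and 8293 in WT1 to WT3, 7158, 7972 and 8435 in HET1 to HET3 and 7788, 7250 and 7409 in KO1 to KO3. The highest library was 1.46 times the lowest, the narrowest spread of any member, and the 3 genotypes overlapped.

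Kl (5:150952607-150993817, plus strand) encodes klotho, a membrane co-receptor for the hormone FGF23 that is also shed into the fluid. Its normalized counts were 40.1, 44.6 and 41.1 in WT, 41.5, 94.3 and 33.6 in HET and 41.9, 61.0 and 45.1 in KO, each in the order of replicates 1 to 3. The other 7 libraries lay between 33.6 and 45.1, below HET2 and KO2.

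Folr1 (7:101858331-101870788, minus strand), the folate receptor that carries folate into the cerebrospinal fluid, was at 3.72, 21.5 and 7.51 in WT, 8.16, 12.4 and 5.03 in HET and 4.39, 8.76 and 22.4 in KO. WT2 and KO3 were the high libraries, and neither was high for Ttr. Kcnj13 (1:87386363-87394729, minus strand), the inwardly rectifying potassium channel Kir7.1 of the fluid-facing membrane, was at 4.08, 8.19 and 2.89 in WT, 3.1, 15.7 and 9.30 in HET and 0.863, 16.4 and 17.9 in KO. The highest library was 20.8 times the lowest, the largest such ratio among the 7 members with no value at 0, and both ends of it were KO libraries.

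Aqp1 (6:55336432-55348555, plus strand), the water channel of the fluid-facing membrane, was at 15.9, 5.11 and 76.6 in WT, 16.1, 10.6 and 23.1 in HET and 7.12, 36.2 and 18.3 in KO. WT3 stood above the rest and KO2 came next, while WT2 was lowest. Clic6 (16:92485736-92541243, plus strand), a member of the chloride intracellular channel family, was at 207, 176 and 112 in WT, 206, 154 and 92.2 in HET and 190, 188 and 60.3 in KO. In each genotype the third library was the lowest of its 3. Without HET3 and KO3 the range of Clic6 shrank from 1.76 to 0.87 on the log2 scale.

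Otx2 (14:48657677-48673819, minus strand) was at 9.84, 3.20 and 1.89 in WT, 3.06, 3.48 and 2.01 in HET and 8.66, 20.4 and 5.61 in KO. KO2 was highest and only KO2 passed 10, so Otx2, like Ttr, was not tested in the fit across genes.

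**Figure D2:**
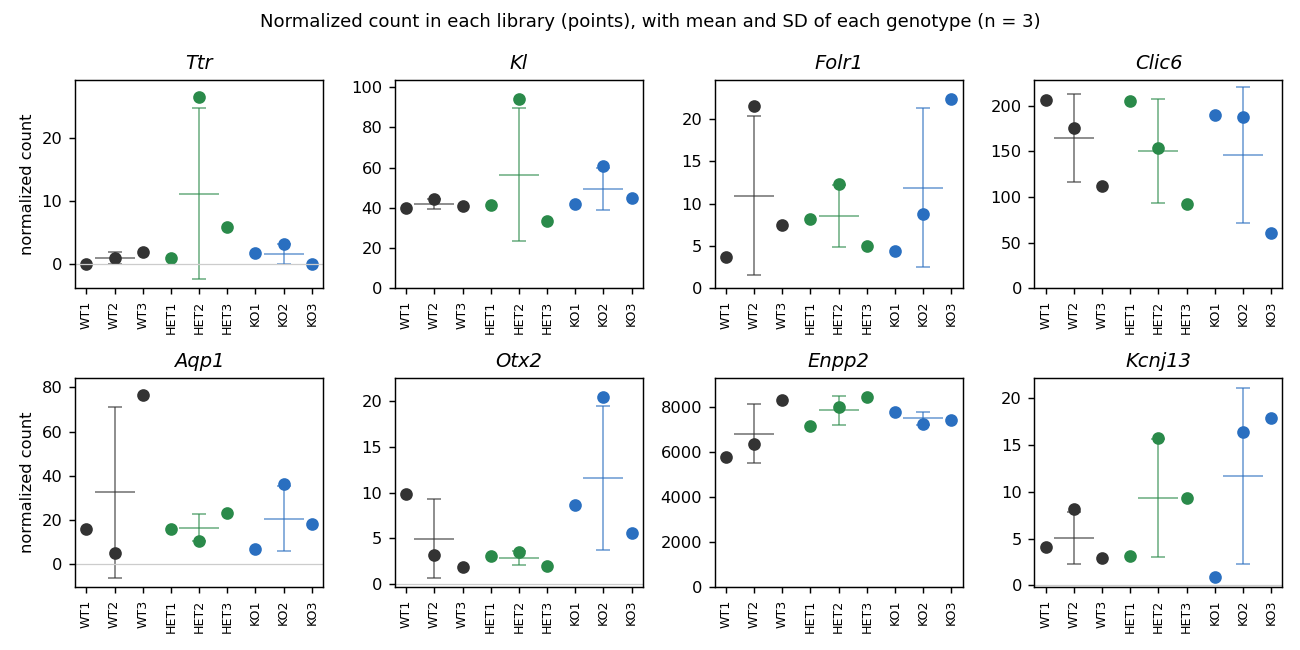
Normalized count of each member in each of the 9 libraries (points, linear axes with a different range in each panel), with the mean and SD of each genotype (n = 3). The highest point fell in HET2 for Ttr and Kl, in KO3 for Folr1 and Kcnj13, in WT1 for Clic6, in WT3 for Aqp1, in KO2 for Otx2 and in HET3 for Enpp2.

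No single library was the highest for most members, and the highest values of the 8 members fell in 6 different libraries. HET2 was highest for Ttr and Kl, KO3 was highest for Folr1 and Kcnj13, and KO2 was highest for Otx2 and second for Kl, Aqp1 and Kcnj13. Over the 28 pairs of members, Pearson's r of the log2 values across the 9 libraries ranged from −0.48 to 0.66 with a median of 0.04, and 15 pairs were positive. Of the 7 relations of Ttr with the other members, the closest was with Kl (r = 0.66, two-sided exact permutation p = 0.0696, adjusted p = 0.327; rho = 0.18, p = 0.652, adjusted p = 0.904). That relation rested on HET2, since r was −0.07 without it and −0.19 without WT1 and HET2, the 2 libraries farthest from the median of Ttr. KO3, also listed at 0, was as far as WT1, and r was −0.02 without KO3 and HET2. Ttr with Enpp2 gave r = 0.59 (exact permutation p = 0.0935, adjusted p = 0.327) and rho = 0.72 (p = 0.0344, adjusted p = 0.241), with r = 0.50 without WT1 and HET2 and 0.83 without KO3 and HET2. As deviations from the genotype means these were 0.70 for Kl and 0.47 for Enpp2. The other 5 members had r between −0.23 and 0.31 with Ttr. All these relations rest on low values of Ttr, at or below 3.24 outside HET2 and HET3.

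The spread between libraries was wide for most members even for their level. The SD of the log2 values was 1.17 for Kcnj13, 1.11 for Aqp1, 0.84 for Folr1, 0.61 for Clic6 and 0.43 for Kl, beside a median of 0.18 over all 14239 genes tested. Genes of like level (within 0.5 log2 of the member's mean) had median SDs of 0.67, 0.49, 0.59, 0.25 and 0.34. Enpp2 had an SD of 0.18, against 0.14 for genes of its level.

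Genotype was compared next, with WT as the control. None of the 6 tested members passed an adjusted p of 0.05 in limma in any of the 3 comparisons. The background was 0% of 14239 genes called in HET against WT, 0% in KO against WT and 0% in KO against HET. At an unadjusted p under 0.05 the same fit held 1.11% of genes (158) for HET against WT, 0.822% (117) for KO against WT and 1.31% (186) for KO against HET, and 0 members. With the replicate block, the last of these counts became 318 and still no gene or member passed the adjusted threshold. All 3 shares of the main fit lay under the share of 0.05 expected with no difference at all, so the fit called sparingly here. Even Shank3 in KO against WT, with libraries that did not overlap and an unadjusted limma p of 0.00195, was not called. The lack of calls therefore does not show that the members were unchanged.

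For every tested member but Enpp2, each difference between genotypes was smaller than its standard error. For HET against WT the log2FC was 0.28 for Kl (SE 0.35), −0.10 for Folr1 (SE 0.68), −0.16 for Clic6 (SE 0.45), −0.25 for Aqp1 (SE 0.84), 0.22 for Enpp2 (SE 0.13) and 0.65 for Kcnj13 (SE 0.89), each with a limma adjusted p of 0.999. For KO against WT it was 0.21 for Kl, 0.15 for Folr1, −0.30 for Clic6, −0.15 for Aqp1, 0.15 for Enpp2 and 0.59 for Kcnj13, with the same SEs and a limma adjusted p of 0.999 each. Enpp2, with the smallest SE, was at 6807 ± 1321 (SD, n = 3) in WT, 7855 ± 647 in HET and 7483 ± 276 in KO. Several directions turned when 1 library was left out, while those of Enpp2 in all 3 comparisons and of Kl in KO against WT did not. Kcnj13 could not be fitted without HET2, KO2 or KO3, the 3 libraries in which it reached 10. Its directions against WT in HET and KO were kept in the other omissions. Those omissions keep all 3 of these mutant libraries, so they cannot show whether the directions rest on 1 of them. The HET difference of Kl turned to −0.16 without HET2, that of Aqp1 to 0.73 without WT3, and that of Clic6 to 0.15 without HET3. The KO difference of Clic6 turned to 0.24 without KO3, that of Aqp1 to 0.83 without WT3, and that of Folr1 to −0.37 without WT1.

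**Figure D3:**
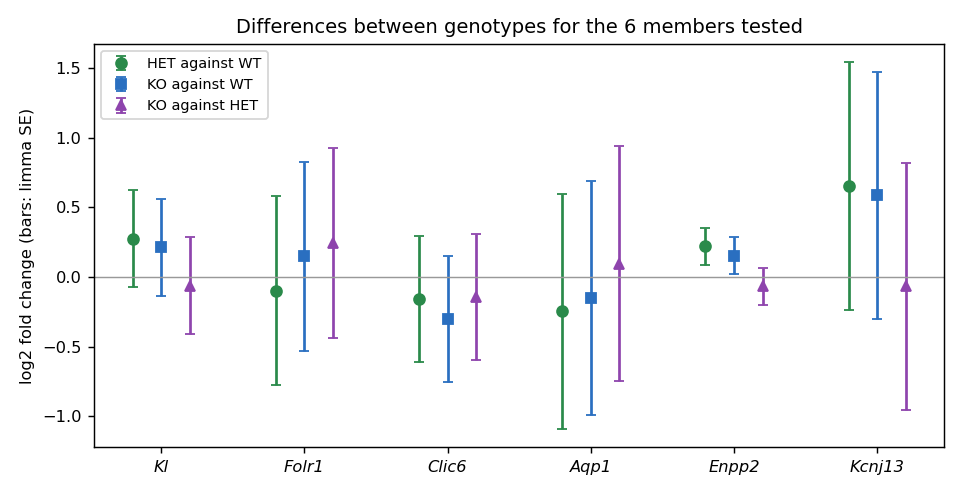
Log2 fold change on the log2(normalized count + 1) scale for the 6 tested members in HET against WT, KO against WT and KO against HET (points), with the limma standard error as bars. The SE was 0.13 for Enpp2 and between 0.35 and 0.89 for the other 5, and every bar except those of Enpp2 against WT crossed 0.

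Ttr and Otx2 were compared one gene at a time with an exact permutation test over the libraries, in which 3 against 3 cannot give a p below 0.1. Ttr was at 0.980 ± 0.957 (SD, n = 3) in WT, 11.2 ± 13.5 in HET and 1.65 ± 1.62 in KO. The log2 difference between HET and WT was 2.01 (two-sided exact permutation p = 0.2), falling to 1.06 without HET2, and that between KO and WT was 0.32 (exact permutation p = 0.8). Otx2 was at 4.98 ± 4.26 in WT, 2.85 ± 0.756 in HET and 11.6 ± 7.83 in KO. The 3 KO libraries all lay above the 3 HET libraries (log2 difference 1.55, exact permutation p = 0.1, the smallest this design allows), while KO and WT overlapped (1.13, exact permutation p = 0.3). This was the 1 of 24 comparisons of a member between 2 genotypes without overlap. Among all tested genes the genotypes did not overlap for 4.45% in HET against WT, 4.54% in KO against WT and 4.45% in KO against HET, so 1 of 24 members' comparisons is near that background.

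Other genes of the choroid plexus were read from a list of 44, of which 40 were in the table and 32 tested. Slc16a8, Cldn2, Cldn3 and Lmx1a were not listed. None passed an adjusted p of 0.05 in limma for any comparison, against the backgrounds of 0% above, and at an unadjusted p under 0.05 there was 1, Abca4 in KO against HET. The median log2FC over the 32 genes was 0.14 for HET and 0.07 for KO against WT. For the 6 tested members it was 0.06 and 0.15, and for all tested genes −0.00266 and 0.00467. Levels split the list, since 10 genes had a median under 10 normalized counts, 9 between 10 and 100, and 21 at 100 or more.

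Among transporters and channels, the bicarbonate transporter Slc4a5 ran from 0 in HET3 to 19.6 in KO3, and Kcne2, a potassium channel subunit, from 1.03 in WT2 to 8.21 in KO3. Tmem72, only grouped with them in the list, ran from 0 in KO2 to 5.12 in WT2. Slc13a4, a sulfate transporter, was higher and ranged from 30.4 in KO1 to 356 in HET2. Of the junction and epithelial keratin genes, Epcam ran from 1.18 in KO3 to 8.31 in HET2, Krt18 from 1.02 in WT1 to 6.67 in HET2, and Krt8 from 0.972 in WT3 to 5.37 in HET1. None of Slc4a5, Tmem72, Kcne2, Epcam, Krt18 and Krt8 reached the testing level.

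Among secreted proteins of the list, Wfdc2 ran from 0.731 in HET2 to 9.80 in WT3, the growth factor Igf2 from 422 in KO1 to 2194 in HET2, and 1500015O10Rik, the gene of the secreted peptide augurin, from 12.2 in WT2 to 58.2 in WT3. Among receptors, the prolactin receptor Prlr was at 31.4 in KO1 and 24.1 in KO2 and between 4.83 and 12.0 in the other 7 libraries. Htr2c, a serotonin receptor that neurons also express, ran from 1129 to 2496, and the peptidase Ace, also made by striatal neurons, from 774 to 1600. Among transcription factors, Msx2 ran from 0 in WT2 and KO1 to 9.46 in WT3, Foxc1 from 52.6 in KO1 to 168 in HET2, and Msx1 from 27.7 in HET3 to 57.2 in HET2. Over the 40 other choroid plexus genes, HET2 was the highest library for 13, among them Slc13a4, Igf2, Igfbp2, Epcam, Krt18, Foxc1 and Msx1, and HET3 for 7, while each of the other 7 libraries was highest for 0 to 5. No share over all genes was set beside these counts, so they cannot be read as a trait of this list. HET2 was also the lowest library for Wfdc2 (0.731), Stra6 (134), Cldn1 (33.5) and Cgn (162), so the list did not rise as a whole in HET2. The summed normalized count of the 40 genes was 17892 in HET2, 17716 in HET3 and 14701 in the lowest library, WT3. Abundant genes weigh most in that sum, among them Slc12a2 (2826 in HET2), Igf2 (2194) and Ramp1 (1982).

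Markers of the cells that lie beside the choroid plexus were read for the same libraries. The level of a list was the mean log2 distance of its tested genes from the median library. All 11 meningeal genes, among them the collagens Col1a1 and Col1a2, were above 0 in every library, and their sum ran from 1101 in KO1 to 3814 in HET2, a 3.46-fold range. By genotype the meningeal sum ran from 1694 to 2690 in WT, 1428 to 3814 in HET and 1101 to 3030 in KO. The sum of 19 ependymal genes, which include Foxj1, the master regulator of motile cilia, ran from 1165 to 1684 in WT, 1286 to 1552 in HET and 945 to 1963 in KO, with KO2 highest and KO3 lowest. HET2, the library with the most Ttr and Kl, had the highest meningeal sum. KO2, the library with the most Otx2, had the highest ependymal sum. These matches are of single libraries, and the relations over all 9 libraries are given below. Of the 10 septal and thalamic genes, KO2 was highest for Zic1, Zic4, Trpc4, Prkcd and Slc17a6. Zic1 was at 870 there against 279 to 515 in the other 8 libraries. KO2 was lowest for Lef1 and Rora, and neither highest nor lowest for Tcf7l2, Ntng1 and Calb2. The level of that list was 0.51 in KO2 and 0.47 in WT3. No ependymal or meningeal gene was called for any genotype comparison. Against WT, the median log2FC was 0.09 in HET and 0.18 in KO for the ependymal genes, −0.06 and −0.30 for the meningeal genes and 0.36 and 0.05 for the oligodendrocyte genes, and leaving out single libraries turned all of these signs except that of the oligodendrocyte genes in HET. The part of these cells in the members' values was not tested.

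**Figure D4:**
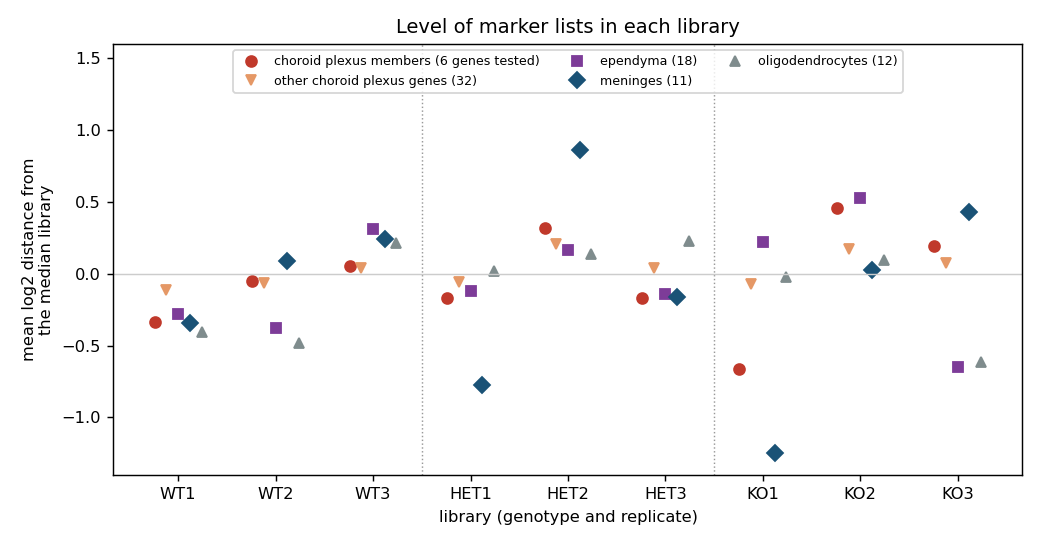
Level of 5 marker lists in each library, as the mean log2 distance of the list's tested genes from the median library, by genotype and replicate. The meningeal genes ran from −1.24 in KO1 to 0.86 in HET2, while the 6 tested choroid plexus members ran from −0.66 in KO1 to 0.45 in KO2.

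Each of the 8 members and of the 32 other tested choroid plexus genes was set against the levels of 6 lists (ependyma, meninges, oligodendrocytes, vessels, striatum and cortex) across the 9 libraries, 240 relations in all. The p-values take the 9 libraries as exchangeable, although HET3 and KO3 stood apart from the rest. Of the members, Kcnj13 had the closest relation by r, with the meningeal level, at r = 0.80 (two-sided exact permutation p = 0.0091, adjusted p = 0.156; rho = 0.62, p = 0.0857, adjusted p = 0.355), with r = 0.55 without HET2 and KO1. By rank the closest was that of Ttr with the oligodendrocyte level (rho = 0.87). Outside HET2 and HET3, Ttr was at or below 3.24, with WT1 and KO3 tied at 0, so its ranks rest on differences of a few counts. Ttr had r = 0.75 with the vessel level (exact permutation p = 0.0163, adjusted p = 0.218; rho = 0.56, p = 0.122, adjusted p = 0.438), which fell to 0.18 without HET2 and HET3. Its r was 0.41 with the meningeal level, or −0.05 without HET2 and KO1, and 0.53 with the ependymal level. With the oligodendrocyte level the r of Ttr was 0.70 (exact permutation p = 0.0298, adjusted p = 0.287; rho = 0.87, p = 0.00376, adjusted p = 0.12), or 0.65 without WT2 and KO3. Kl had r = 0.58 with the meningeal level, or 0.27 without HET2 and KO1. Otx2 had r = 0.28 and rho = 0.07 with the ependymal level, and r = −0.12 without KO2 and KO3. Enpp2 had r = 0.71 with the oligodendrocyte level (exact permutation p = 0.0347, adjusted p = 0.287; rho = 0.73, p = 0.0311, adjusted p = 0.258), and 0.94 without WT2 and KO3. Clic6 had r = −0.73 with the cortical level (exact permutation p = 0.0241, adjusted p = 0.275; rho = −0.83, p = 0.00827, adjusted p = 0.142), falling to −0.39 without WT3 and KO3. No relation of a member passed an adjusted p of 0.05.

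Igf2 and Slc13a4, which meningeal fibroblasts are known to express as well, did pass. Slc13a4 was at 106, 139 and 172 in WT, 45.7, 356 and 122 in HET and 30.4, 152 and 286 in KO, and its r with the meningeal level was 0.99 (exact permutation p = 5.51e-06, adjusted p = 0.00132; rho = 0.98, adjusted p = 0.00595), or 0.97 without HET2 and KO1. Igf2 was at 604, 1104 and 1090 in WT, 508, 2194 and 1006 in HET and 422, 1102 and 1292 in KO, with r = 0.97 (adjusted exact permutation p = 0.00165; rho = 0.95, adjusted p = 0.0282), or 0.94 without HET2 and KO1. Igfbp2, a binding protein of that growth factor, passed by rank (rho = 0.98, adjusted exact permutation p = 0.00595) and not by r (0.85, adjusted p = 0.068). In the same way 1500015O10Rik passed by rank with the ependymal level (rho = 0.93, adjusted exact permutation p = 0.045) and not by r (0.72, adjusted p = 0.287). As deviations from the genotype means, r was 0.99 for Slc13a4 and 0.98 for Igf2.

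**Figure D5:**
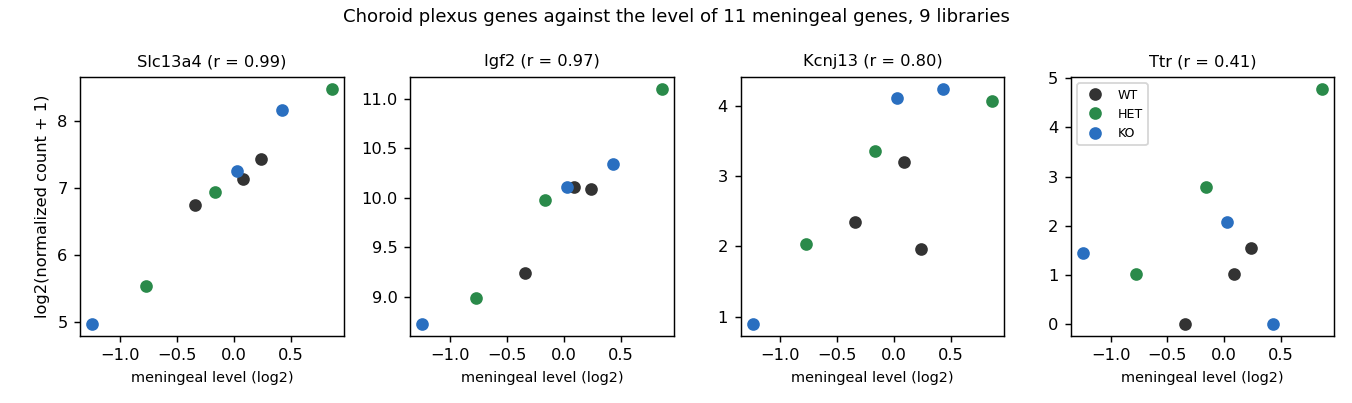
Log2(normalized count + 1) of Slc13a4, Igf2, Kcnj13 and Ttr against the level of 11 meningeal genes (mean log2 distance from the median library) in the 9 libraries, coloured by genotype. Slc13a4 and Igf2 followed the meningeal level with r of 0.99 and 0.97, while Ttr, with r of 0.41, was highest in HET2 and listed at 0 in KO3, the 2 libraries with the highest meningeal level.

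The genes outside the 8 whose pattern was most like the mean of the standardised members were Lamc3 (r = 0.93) and Zic2 (r = 0.93), followed by Ltbr, Fgfbp3, Hs3st1, Zfp395, Pcdh9, Plekhg2, Glis3 and Parvb at r of 0.85 to 0.89, over the 9 libraries. They are the 10 highest of 14239 tested genes, none was on a marker list, and the values are a description with no test. The mean that they follow was high in HET2 (0.72) and KO2 (0.70) and between −0.46 and −0.04 in the other 7 libraries.

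Promoter windows, from 250 bases before to 50 after a start site in RefSeq on GRCm38.p6, were at hand for 4 of the 8 members, Kl, Aqp1, Otx2 and Kcnj13, with 4 windows for Otx2 and 1 for each of the others. The letters TAATCC, the core recognised by OTX2-type homeodomains, were looked for on both strands. They occurred in 1 of these 7 windows, against 7.06% of all 32851 windows, and in 1 of the 4 genes, against 8.14% of all 27025 genes. The match lay in the window of Otx2 at chr14:48665060-48665359 on the minus strand, where it begins 211 bases before the start and reads on the opposite strand. That window is shown with the match in capitals, beside the window of Kcnj13 at chr1:87394680-87394979 on the minus strand, the member whose highest and lowest libraries differed by the largest ratio among those with no value at 0. In the window of Kcnj13 these letters do not occur.
Otx2: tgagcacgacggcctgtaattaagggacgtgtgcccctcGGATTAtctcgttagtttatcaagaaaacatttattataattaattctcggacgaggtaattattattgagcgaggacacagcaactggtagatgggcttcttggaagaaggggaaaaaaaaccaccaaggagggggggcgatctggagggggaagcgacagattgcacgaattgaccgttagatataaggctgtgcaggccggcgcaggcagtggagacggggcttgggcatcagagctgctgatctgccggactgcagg
Kcnj13: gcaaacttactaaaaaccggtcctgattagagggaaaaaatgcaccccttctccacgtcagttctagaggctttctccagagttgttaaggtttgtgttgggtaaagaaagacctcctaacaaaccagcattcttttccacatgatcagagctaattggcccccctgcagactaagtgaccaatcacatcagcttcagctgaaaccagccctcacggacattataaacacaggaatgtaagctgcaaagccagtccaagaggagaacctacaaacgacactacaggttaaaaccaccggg
A match is a string of letters and not a binding site, and the windows bear on no difference measured here.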

How the data were processed

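Striatal RNA of 9 mice (3 WT, 3 HET, 3 KO) was sequenced as TruSeq stranded mRNA, 101-bp paired reads. The deposited signal is a table of normalized counts: the authors quantified reads with Salmon 0.9.1 on GRCm38 with GC bias correction, summed transcripts to genes with tximport and divided by DESeq2 1.19.11 size factors. The values are not whole, so no count test was run, and their low end carries an unknown sampling error. The table lists 15464 genes, and all its value columns were used.

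Values were taken as log2(normalized count + 1). Genes with at least 10 in at least 3 libraries (14239) entered 1 limma 3.58.1 fit with a variance trend (R 4.3.3) over all 9 libraries, with Benjamini-Hochberg adjustment over all genes and a threshold of 0.05. The script was tested on simulated data. Single genes were compared by exact two-sided permutation of 3 libraries against 3, and correlations by exact permutation over 9 libraries. Fold changes on this scale understate those of low genes. Levels per kilobase used the union of GRCm38 exons, which is longer than most transcripts.

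Groups and replicate numbers came from the sample labels. The members and lists were chosen with earlier results of these data known. Named were the 8 members, genes of the lists (at least the 3 of each choroid plexus role list with the widest range), the 10 genes most like the members' mean, and Shank3. Same-numbered libraries deviated together for HET with KO (r of 0.515, 0.281 and 0.506 over genes) but not in every pair for WT with HET (0.319, −0.0142 and 0.00538) or WT with KO (0.243, −0.221 and 0.0244). The labels do not say what a number stands for. P-values of the genotype comparisons measure the spread between these mice. Those of the correlations treat the 9 libraries as exchangeable. HET3 and KO3 stood apart and same-numbered HET and KO libraries deviated together, so these p-values are a rough guide only. Alternatives were other filters, pseudocounts of 0.5 and 5, equal library totals, no trend, robust variances, a replicate block, fits of 2 genotypes, each library left out, and HET3 with KO3 left out. The alternatives for relations with list levels were added after the data were seen.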

Additional observations from a re-analysis of the deposited data

How the results depend on the processing

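The number of genes past an adjusted p of 0.05 was 0 for every comparison under every alternative, and no member was called in 301 refits (smallest limma adjusted p = 0.974). The replicate block gave 365, 310 and 318 genes at an unadjusted p under 0.05 for HET against WT, KO against WT and KO against HET, in place of 158, 117 and 186, and changed no call. The KO against WT count was 76 with the filter at 50 and 176 without a variance trend, and with HET3 and KO3 left out the counts against WT were 271 for HET and 217 for KO. Leaving out single libraries gave 116 to 393, 70 to 289 and 141 to 298 for the 3 comparisons in the same order.

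Leaving out 1 library at a time turned the sign of 12 of the 18 member contrasts. The 6 that kept it in every omission that could be fitted were Enpp2 (0.11 to 0.37 for HET and 0.042 to 0.30 for KO against WT, −0.13 to −0.014 for KO against HET), Kcnj13 against WT (0.38 to 1.21 for HET, 0.31 to 1.68 for KO) and Kl for KO against WT (0.053 to 0.32). Without HET2, KO2 or KO3, Kcnj13 was below the filter and had no value, and likewise Folr1 without WT2, HET2 or KO3. The fits of Kcnj13 with 1 library left out thus all held HET2, KO2 and KO3. Its kept sign against WT could not show whether it rests on 1 of them. The log2FC of Kcnj13 for KO against HET was 0.087 with a pseudocount of 5. Without HET3 and KO3 that of Clic6 was 0.15 for HET and 0.24 for KO against WT and 0.088 for KO against HET, its range 0.87, the median of the meningeal genes for HET 0.038 and that of the vessel genes for KO −0.0072. With the filter at 50 the members' median for KO was −0.075. Over the omissions of 1 library each, the log2FC for HET against WT ran from −0.16 to 0.57 for Kl, −0.62 to 0.19 for Folr1, −0.42 to 0.15 for Clic6 and −1.10 to 0.73 for Aqp1. For KO against WT it ran from −0.37 to 0.64 for Folr1, −0.58 to 0.24 for Clic6 and −1.01 to 0.83 for Aqp1. For KO against HET it ran from −0.36 to 0.37 for Kl, −0.047 to 0.74 for Folr1, −0.46 to 0.40 for Clic6, −0.43 to 0.67 for Aqp1 and −0.63 to 1.03 for Kcnj13. The difference of Ttr between KO and WT ran from −0.14 to 0.91, that of Otx2 between HET and WT from −0.83 to 0.12, and r of Ttr with Kl from −0.073 to 0.90. List medians ran, for HET and KO against WT in turn, from −0.10 to 0.32 and −0.038 to 0.37 for the members, −0.054 to 0.29 and −0.11 to 0.43 for ependyma, −0.54 to 0.40 and −0.56 to 0.22 for meninges, −0.091 to 0.56 and −0.49 to 0.15 for blood, and −0.20 to 0.032 and −0.10 to 0.14 for cortex. They ran from −0.27 to 0.21 for striatum in HET, and in KO from −0.089 to 0.26 for oligodendrocytes, −0.10 to 0.17 for septum and thalamus and −0.020 to 0.093 for vessels. The cause was not tested. By contrast, r with the meningeal level stayed between 0.98 and 0.99 for Slc13a4 and between 0.96 and 0.98 for Igf2 over the same omissions. With an unknown depth, values near 1 may rest on single reads.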
